A study of Mus musculus with 7 samples.

Results

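The 2019 nuclei described here were selected as CA3 pyramidal neuron nuclei of the mouse hippocampus. They were taken from the 24 single-nucleus wells by their transcript counts alone. A nucleus had to hold at least 3000 and fewer than 50000 transcripts, more than 400 genes and at least 1 transcript of *Slc17a7*, the vesicular glutamate transporter of cortical excitatory neurons. It also needed at least 10 transcripts, and at least 10 per 10000, of *Grik4*, *Trps1*, *Nectin3*, *Galnt3* and *Iyd* together. No transcript of the CA1 genes *Fibcd1* and *Mpped1* was allowed, and at most 1 of *Prox1* (dentate granule cells), at most 1 of *Gad1* and *Gad2* (GABAergic cells) and at most 2 of *Slc17a6*. The members were 4.22% of the 47892 nuclei with over 300 transcripts and over 400 genes, 7.23% of the 27929 nuclei in the depth range and 17.7% of the 11418 of these with a *Slc17a7* transcript.

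CA3 pyramidal cells receive the mossy fibres of dentate granule cells on large proximal spines, excite each other through recurrent collaterals, and project to CA1 through the Schaffer collaterals. Their mossy fibre synapses are known for kainate receptors, of which *Grik4* encodes a high-affinity subunit, and for the adhesion protein nectin-3. Neurons make and take up cholesterol under control of the transcription factor SREBP2, which is cleaved and enters the nucleus when membrane sterol is low and which drives the genes of the pathway.

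Wild-type (WT) and Arctic48 (Arc) mice from a cross with C57BL6/J were compared. Arc mice are hemizygous for a human *APP* transgene with the Swedish, Indiana and Arctic mutations. Mice of both genotypes drank water (veh) or water with PMX205, a cyclic peptide antagonist of the complement receptor C5aR1, at 20 µg/ml for 12 weeks, and were perfused at 10 months of age. Each single-nucleus well held the nuclei of frozen hippocampal tissue of 1 mouse, and each of the 4 groups had 6 wells (WT-veh and WT-PMX in wild types, Arc-veh and Arc-PMX in Arc mice), with 3 females, F1 to F3, and 3 males, M1 to M3, in a group. The 24 wells were barcoded and sequenced together in 7 sublibraries, so wells are the replicates. Comparisons of the genotypes over both treatments use 12 wells against 12. A WT sample was set aside in the study because it looked Arctic in expression, without its well being named. All 24 wells were kept under their labels.

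A well held 50 to 159 member nuclei and 407687 (Arc-PMX F3) to 4029253 (WT-veh F2) of their transcripts. A member had a median of 18996 transcripts (quartiles 12404.5 and 26798.5) and 4311 genes. The well medians averaged 17663 transcripts per nucleus in WT and 20695 in Arc, and they ranged from 7236 to 34179.5, and the part of this difference in the results was not tested. The summed level of glial and vascular marker genes was 118 to 347 CPM (counts in each 1000000 of the members' transcripts in a well) in 22 wells, 721.5 in Arc-PMX F1 and 684 in Arc-PMX F3. Its median was 258 CPM over the 6 Arc-PMX wells and 142 to 155 in the other groups. The summed level of the 4 genes linked to ribosomal RNA reads (*Lars2*, *Cmss1*, *Gm42418* and *AY036118*) was 2030 to 15621 CPM, highest in Arc-veh M1. *Xist* and the Y-linked genes matched the labelled sex in all 24 wells. Of the members, 24 shared 12 combinations of round barcodes with a member of another sublibrary, 33 had a doublet score above 0.25, 8 had 1% or more mitochondrial transcripts, and 101 held 10 or more glial transcripts.

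The genes of the rule set the members apart by construction. They carried a median of 65 transcripts of the 5 marker genes, 35.1 per 10000 (5th to 95th percentile 13.6 to 57.6). Just inside the threshold, the 54 members with 10 or 11 of these transcripts had 455 CPM of *Spock1*, a CA3 marker outside the rule that encodes a proteoglycan, and 581 CPM of *Glis3*, a dentate granule marker. Just outside it, 81 nuclei with 8 or 9 transcripts had 272 CPM of *Spock1* and 809 CPM of *Glis3*. The 1313 members with more than 30 of these transcripts per 10000 had 1495 CPM of *Spock1* and 5.81 CPM of *Glis3*. Members at the threshold carried more of a dentate marker and less of a CA3 marker than the bulk of the set.

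The label was checked against 10 CA3 markers that the rule did not use, beside 2327 CA1 nuclei and 2957 dentate granule nuclei chosen from the same wells by rules of the same form. Since transcripts chose the 3 sets, their levels are given as a description. *Spock1* averaged 1520 CPM in CA3 nuclei (1251 to 1754 over the 24 wells), 190 in CA1 and 61.2 in dentate nuclei. *Cpne4*, a calcium-dependent membrane-binding protein, averaged 1096 CPM in CA3, 101 in CA1 and 441 in dentate nuclei. *Elavl2*, a neuronal RNA-binding protein, had 274 CPM in CA3 (199 to 338 over wells), 65.0 in CA1 and 7.23 in dentate nuclei. Each of these was highest in CA3 nuclei in all 24 wells. *Cdh24* (48.6, 14.9 and 5.06 CPM), *Socs2* (89.2, 36.3 and 1.26) and *Prss35* (17.4, 1.85 and 0.238) had the same order of means. Against the label, *Nptx1* averaged 64.7 CPM in CA3 and 83.6 in dentate nuclei, and *Tspan18* averaged 151 in CA3 and 172 in dentate nuclei, with CA3 highest in 8 wells. Levels by type of the rest of the 10 markers are not given here.

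**Figure D1:**
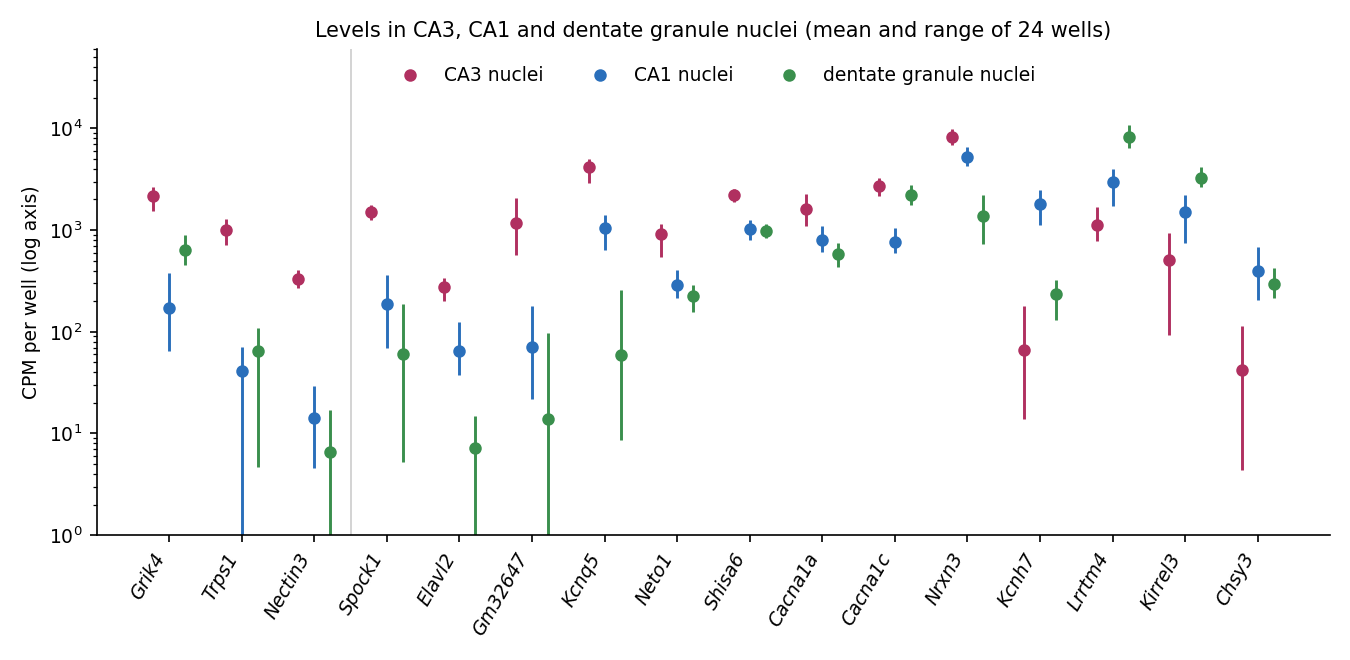
Level of 16 genes in CA3, CA1 and dentate granule nuclei, as the mean CPM over 24 wells with the range from the lowest to the highest well, on a log axis that starts at 1. The 3 genes left of the grey line belong to the rule; *Spock1* sat at 1520 CPM in CA3 against 190 and 61.2, while *Kcnh7* sat at 66.0 CPM in CA3 against 1817 and 235.

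Of the 2994 genes with at least 50 CPM in CA3 nuclei, 215 were above both other types in each of the 24 wells, 211 of them outside the rule. Among 2690 genes with at least 50 CPM in both other types, 179 were below both in every well. Outside the rule, the largest ratio to the higher of the other types was that of *Mndal*, an interferon-inducible gene of the Ifi200 family, at 60.7 CPM in CA3, 0.694 in CA1 and 1.34 in dentate nuclei. The long noncoding RNA gene *Gm32647* followed (1170, 71.1 and 13.9 CPM). Next were *Ttn*, the gene of the muscle protein titin (86.4, 5.49 and 1.31), *Spock1* and *Trhde*, an ectoenzyme that degrades thyrotropin-releasing hormone (650, 91.2 and 43.3). Others among the top 20 were the small GTPase gene *Rerg* (250, 12.7 and 43.6), the glycosyltransferase gene *Mgat4c* (1920, 438 and 33.8), the cation channel gene *Trpc7* (51.9, 13.5 and 2.94) and the M-current potassium channel gene *Kcnq5* (4206, 1060 and 59.3). At the other end, *Brinp3* (12.1, 315 and 132), the receptor gene *Ror1* (22.7, 340 and 238), *Spon1* (25.1, 230 and 323), *Cntnap5a* (60.1, 496 and 1095) and the chondroitin synthase gene *Chsy3* (42.0, 399 and 298) were lowest in CA3 nuclei.

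Among glutamate receptor genes, auxiliary subunits were found at both ends of the order. *Neto1*, an auxiliary subunit of kainate receptors, averaged 918 CPM in CA3, 286 in CA1 and 223 in dentate nuclei. The AMPA receptor auxiliary genes *Shisa6* (2190, 1022 and 972) and *Cacng2* (174, 64.1 and 101) were also highest in CA3, whereas *Cacng3* (78.9, 229 and 206), *Shisa9* (145, 353 and 1348) and *Cnih3* (23.4, 133 and 209) were lowest there. Among kainate receptor subunits outside the rule, *Grik2* averaged 1498, 984 and 1934 CPM and *Grik5* 229, 175 and 189, while *Grik1* (8.08, 43.0 and 16.3) and *Grik3* (21.3, 122 and 157) were low in CA3. The AMPA receptor gene *Gria1* was nearly level across the types (4468, 4428 and 4328), and CA3 was highest in 7 wells. The metabotropic receptor gene *Grm8* averaged 78.1, 445 and 112 CPM.

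Genes of synaptic adhesion showed both patterns. The presynaptic adhesion gene *Nrxn3* averaged 8199 CPM in CA3, 5185 in CA1 and 1384 in dentate nuclei. *Gpr158*, a postsynaptic receptor at mossy fibre synapses, averaged 682, 495 and 485 CPM. *Lrrtm4* (1115, 2978 and 8239), its partner glypican gene *Gpc4* (9.58, 37.0 and 198) and *Kirrel3* (509, 1499 and 3225) were lowest in CA3. *Cdh9*, a cadherin shared by granule and CA3 cells, averaged 382 CPM in CA3, 48.1 in CA1 and 581 in dentate nuclei. Of the ion channels, the calcium channel genes *Cacna1a* (1595, 794 and 581) and *Cacna1c* (2683, 757 and 2198) were highest in CA3. The ERG-type potassium channel gene *Kcnh7* averaged 66.0 CPM in CA3, 1817 in CA1 and 235 in dentate nuclei.

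The members were not uniform. After each nucleus was thinned to 3000 transcripts, the variance of Pearson residuals had a median of 1.06 over 4015 genes, and the 12 most variable genes lay between 8.32 and 17.4. Several of these marked a small group. *Gm28928* (17.4), *Sgcz* (15.6), *Tshz2* (14.1) and *Ptprt* (8.32) had a transcript in 5.45%, 16.1%, 4.80% and 7.03% of thinned nuclei. *Gm32647* (12.9) was instead found in 63.8% of thinned nuclei (51.1% to 76.5% over wells) and *Asic2* (8.57), an acid-sensing ion channel gene, in 61.5%. Over the 2019 nuclei, which share wells and depth, the Spearman correlation was 0.581 for *Tshz2* and *Ptprt*, 0.366 for *Gm32647* and *Tenm2*, and −0.311 for *Gm32647* and *Asic2*. *Tenm2*, an adhesion gene of the teneurin family, was found in 98.9% of thinned nuclei.

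The group with *Tshz2*, a transcription factor gene of deep cortical and subicular neurons, went against the label. It held 61 members (3.02%) from 21 wells with 10 or more *Tshz2* transcripts and a median of 15 transcripts of the 5 marker genes. Of genes outside the rule, *Spock1* was 866 CPM and *Kcnh7* 1623 in these nuclei, against 1517 and 35.4 in the 1958 others. *Nectin3* (39.6 CPM against 352) and *Trps1* (129 against 1057) belong to the rule, so their levels were bounded by the choice of the members. The share of *Tshz2* nuclei among the members averaged 1.79% ± 1.62 (SD over 6 wells) in WT-veh and 5.53% ± 4.42 in Arc-veh. With PMX205 it averaged 2.89% in WT and 2.79% in Arc, and the highest well was Arc-veh M1 at 14.3%.

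Other neighbours of CA3 were present too. The rule does not bar CA2 or mossy cells, and it bars dentate granule nuclei only through *Prox1*. The dentate rule was also met by 64 members, in which *Glis3* was 1199 CPM and *Spock1* 41.8. Transcripts of 4 of the 8 listed CA2 markers numbered 3 or more in 136 members, with *Amigo2* at 54.4 CPM, *Asic2* at 4283 and the rule gene *Trps1* at 229. Transcripts of 4 of the 5 listed hilar mossy cell markers numbered 3 or more in 79 members, with *Calb2* at 87.3 CPM, *Gm32647* at 9176 and *Trps1* at 2532. Every comparison of genes between groups within CA3 nuclei was therefore repeated over the 1685 members outside these 4 groups, called the core set (38 to 128 nuclei per well). Summed cortical and subicular markers were 211 ± 51.6 CPM (SD, n = 12 wells) in WT and 288 ± 89.5 in Arc. Summed over all 5 listed genes, mossy cell markers were 28.7 ± 13.4 CPM in WT and 15.6 ± 10.6 in Arc. The 10 CA3 markers outside the rule summed to 3275 ± 188 CPM in WT and 3296 ± 200 in Arc.

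The share of CA3 nuclei among the nuclei of the depth range did not differ detectably between the groups. Its lowest, median and highest well were 6.94%, 7.92% and 9.11% in WT-veh, 5.27%, 6.92% and 8.12% in WT-PMX, 4.29%, 6.87% and 9.79% in Arc-veh, and 4.03%, 7.77% and 9.66% in Arc-PMX. The 4 ranges overlapped. The difference of means was −0.997 percentage points for Arc-veh and WT-veh (two-sided exact permutation test over 924 splits, p = 0.249, adjusted p over 4 comparisons 0.498), 0.392 for Arc-PMX and Arc-veh (p = 0.712, adjusted 0.725) and −1.16 for WT-PMX and WT-veh (p = 0.0844, adjusted 0.338). Over both treatments it was −0.219 (permutation test with 100000 resamples, p = 0.725, adjusted 0.725). The sign of the difference between Arc-PMX and Arc-veh turned without Arc-veh M1 (−0.140) or Arc-PMX M3 (−0.0722), and that over both treatments turned without Arc-veh M1 (0.0403) or Arc-PMX F1 (0.0641). The number of CA3 nuclei per CA1 nucleus ran from 0.451 to 2.22 over wells, and no comparison of its log2 had an adjusted permutation p below 0.655. A share of nuclei recovered cannot be told apart from a difference in which part of the hippocampus a piece of tissue held.

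The genotype comparison asked which CA3 genes differ in mice with amyloid pathology. Counts were summed per well, and 9795 genes were tested with the quasi-likelihood method of edgeR, with p-values adjusted by Benjamini and Hochberg over all of them. Over both treatments 64 genes passed an adjusted p of 0.05, 0.653% of the genes tested, of which 52 were higher and 12 lower in Arc (0.531% and 0.123%). DESeq2 called 85 genes, 60 of them shared with the 64. The count was 18 when nuclei with 2 or more glial transcripts were removed and 261 without the filter on low counts. On water alone (Arc-veh against WT-veh) 30 genes passed, 0.306% of those tested, 24 higher (0.245%) and 6 lower (0.0613%), and 26 of them were among the 64. The count on water was 17 without WT-veh M2, 14 in the core set, 5 with the glial removal and 148 without the filter. The comparison on water uses wells that are also part of the comparison over both treatments.

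Genes of the cholesterol synthesis list were higher in Arc. Of the 16 genes on the list, 15 passed the filter on low counts, and 13 rose and 0 fell (background 0.531% and 0.123% of all genes). The list was chosen with earlier results of these data known. The list's median log2 fold change was 1.13, against −0.002 over all genes tested, and its members ranged from 0.27 to 1.43. *Idi1*, the member under the filter, had a median of 1.21 CPM (0 to 4.27) in WT and 3.38 (0 to 7.22) in Arc. Summed over the list, the level was 206 to 349 CPM in the 12 WT wells (mean 281 ± 35.2, SD) and 413 to 598 in the 12 Arc wells (517 ± 63.6), so the ranges did not overlap.

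The rise included steps of the pathway before squalene. *Hmgcs1*, HMG-CoA synthase (chr13:119690379-119708260 of GRCm38, + strand), was 9.09 CPM in the lowest WT well, 15.1 in the median and 23.2 in the highest, and 27.7, 35.9 and 58.9 in Arc. All 12 Arc wells lay above all 12 WT wells. Its log2 fold change was 1.15 ± 0.13 (SE), 2.22-fold, with an edgeR adjusted p of 1.97e-06. *Mvd* and *Fdps*, which make the isoprenoid precursors, had log2 fold changes of 1.34 ± 0.22 and 1.23 ± 0.22 (edgeR adjusted p = 0.000516 and 0.00282).

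The steps from squalene on moved the same way. *Fdft1*, squalene synthase, ran from 11.3 to 46.2 CPM in WT (median 26.0) and from 44.2 to 73.6 in Arc (median 59.4). Its log2 fold change was 1.13 ± 0.13, with 11 of 12 Arc wells above the highest WT well (edgeR adjusted p = 1.97e-06). *Sqle*, squalene epoxidase, a rate-limiting enzyme, ran from 4.62 to 14.5 CPM in WT (median 8.15) and from 15.6 to 29.4 in Arc (median 21.8), with no overlap (1.22 ± 0.14, 2.34-fold, same adjusted p). *Msmo1*, a sterol demethylase, ran from 8.07 to 20.9 CPM in WT (median 14.7) and from 25.2 to 41.8 in Arc (median 37.4), again with no overlap (1.23 ± 0.13, same adjusted p). *Nsdhl* and *Cyp51*, which act between lanosterol and cholesterol, and *Lss*, which makes lanosterol, had log2 fold changes of 1.27, 0.78 and 0.86 and edgeR adjusted p-values of 2.57e-05, 0.00415 and 0.00043. *Dhcr7*, the last enzyme of one branch, had a log2 fold change of 0.46 ± 0.15 and did not pass (edgeR adjusted p = 0.263).

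Genes that control the pathway were on the list as well. *Insig1*, which holds the SREBP complex in the endoplasmic reticulum, had 0, 4.44 and 7.44 CPM in the lowest, median and highest WT well and 6.92, 8.76 and 12.3 in Arc (1.08 ± 0.22, edgeR adjusted p = 0.0112). *Srebf2*, the gene of SREBP2 itself, had 65.4, 75.4 and 96.0 CPM in WT and 68.0, 97.5 and 117 in Arc. Its log2 fold change of 0.27 ± 0.08 did not pass (edgeR adjusted p = 0.153).

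**Figure D2:**
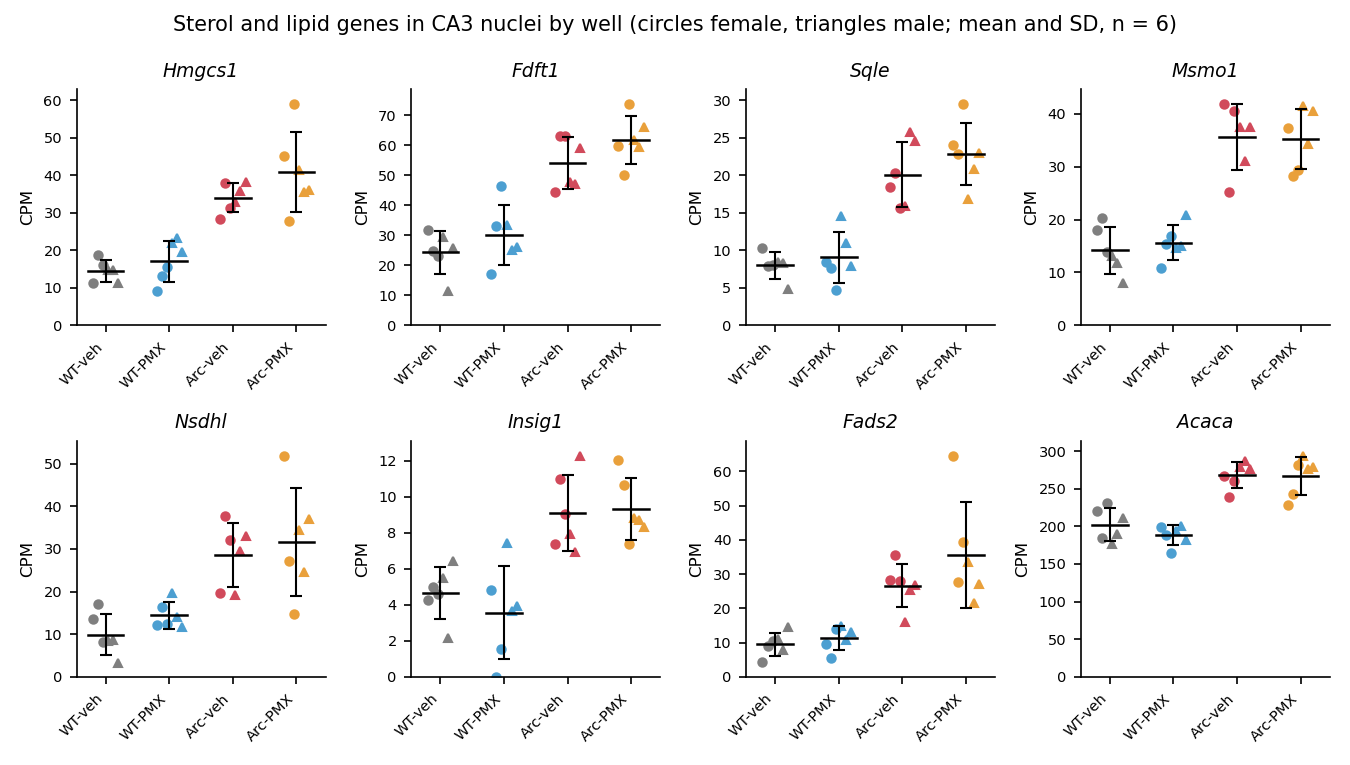
CPM of 8 sterol and fatty acid genes in the CA3 nuclei of each well, by group; circles are females, triangles males, and the bar is the mean ± SD of 6 wells. For *Hmgcs1*, *Sqle*, *Msmo1* and *Fads2* all 12 Arc wells lie above all 12 WT wells.

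Some of the other genes that rose encode enzymes of lipid metabolism. They were picked from the called genes and not from a list, so how many such genes were tested and not called is not given. *Fads2*, the delta-6 desaturase, had 4.27, 10.5 and 14.9 CPM in the lowest, median and highest WT well and 15.9, 27.8 and 64.4 in Arc, with no overlap (log2 fold change 1.56 ± 0.18, edgeR adjusted p = 1.97e-06). *Acaca*, acetyl-CoA carboxylase, had 165, 191 and 231 CPM in WT and 228, 276 and 293 in Arc, and 11 of 12 Arc wells were above the highest WT well (0.45 ± 0.06, adjusted p = 7.56e-05). *Acly*, ATP citrate lyase, had 17.0, 24.7 and 31.8 CPM in WT and 25.7, 39.3 and 54.0 in Arc (0.61 ± 0.11, adjusted p = 0.00348). *Aacs*, acetoacetyl-CoA synthetase, rose by 0.67 on the log2 scale (adjusted p = 0.00702 from edgeR). Named after their values were seen, *Acat2* (1.28, adjusted p = 4.52e-05), *Sc5d* (0.77, 0.00478), *Stard4* (1.30, 0.0204) and *Mvk* (0.93, 0.0298) of the same pathways were also among the 64 genes. The call of *Stard4* was lost without WT-veh M2, and that of *Mvk* was lost in 8 of the 24 fits that left out 1 well, without the *Tshz2* nuclei (0.91, adjusted p = 0.0514) and in the core set (0.82, edgeR adjusted p = 0.25). In all, the wells of the genotypes did not overlap for 5 genes that were higher in Arc (0.051% of genes tested), which were *Hmgcs1*, *Sqle*, *Msmo1*, *Fads2* and *Myo16*, and for 0 genes that were lower.

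On water alone 10 of the 15 list genes passed (all higher, background 0.245%), with a median log2 fold change of 1.15. The 6 Arc-veh wells were all above the 6 WT-veh wells for *Hmgcs1*, *Fdft1*, *Sqle*, *Msmo1* and *Nsdhl*, a pattern that 0.47% of all tested genes had in this direction and 0.327% in the other. *Fdft1*, for example, had 11.3, 25.2 and 31.6 CPM in WT-veh and 44.2, 53.4 and 63.1 in Arc-veh (1.18 ± 0.18, edgeR adjusted p = 0.00158). *Lss* (0.77), *Cyp51* (0.71) and *Insig1* (0.99) did not pass on water, with edgeR adjusted p-values of 0.0865, 0.199 and 0.249. Over both treatments, each of the 13 called genes stayed called when any 1 of the 24 wells was left out and in the core set, where the list's median was 1.11. When all nuclei with 2 or more glial transcripts were removed, which left 801 nuclei, 12 list genes could be tested and 10 rose over both treatments (median 1.10). On water alone 4 of these 12 were called under that removal (median 0.93), and 7 of 15 in the core set (median 1.09), against 10 of 15 among all members.

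Promoter sequence was looked at because the pathway is known to share sterol regulatory elements. The motif TCACNCCAC, a spelled-out form of that element, was searched on both strands from 250 bases before to 50 after the start of each gene in RefSeq sequences of GRCm38. It was present in 408 of 32851 promoters (1.24%) and in 109 of 9950 promoters of tested genes (1.10%). Of the 16 list genes, 10 were matched, and 1 held it. That gene was *Hmgcs1*, where the motif started 137 bases before the gene start of RefSeq, on the gene's strand. That start lies upstream of the GENCODE start given above for the gene. The 30 bases around it (chr13:119690204-119690233, + strand) are shown with the motif in capitals:
*Hmgcs1* promoter: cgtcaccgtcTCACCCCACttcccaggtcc

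In CA1 nuclei of the same wells the list was not called. There 0 of 14 tested members passed edgeR's test. The CA1 comparison called 0 of 9877 genes (539 with an unadjusted p under 0.05), and *App* did not pass (0.31, edgeR adjusted p = 0.281). All 14 list members were nonetheless above zero in CA1, the same direction as in CA3 (log2 fold change 0.058 to 0.984). Their median was 0.51, against −0.001 over all genes tested in CA1. Whether the genotype effect differed between CA3 and CA1 was tested with the well as a block over 10570 genes, of which 19 passed (0.18%) and DESeq2 called 13. That test was not repeated over the core set. *Fdft1* averaged 27.2 ± 8.78 CPM (SD, n = 12 wells) in WT and 57.9 ± 8.85 in Arc CA3 nuclei, and 24.9 ± 11.5 and 27.2 ± 10.4 in CA1 nuclei. Its genotype effect was larger in CA3 by 0.83 ± 0.16 on the log2 scale (edgeR adjusted p = 0.0133). *Acly* differed by 0.61 (adjusted p = 0.039). *Hmgcs1* (0.57, adjusted p = 0.161), *Sqle* (0.64, 0.51) and *Msmo1* (0.60, 0.331) did not pass. Over the list, 2 of 15 tested members were called (background 0.18%), 14 were above zero and the median difference of effects was 0.60, against −0.007 over all genes. CA1 nuclei had a median of 14975 transcripts, against 18996 in CA3.

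The transgene's counterpart was read first as a check of the labels. *App* (chr16:84949685-85173766), the amyloid precursor protein gene, had 523, 538 and 583 CPM in the lowest, median and highest WT-veh well, 561, 596 and 639 in WT-PMX, 617, 694 and 789 in Arc-veh, and 624.8, 673 and 736 in Arc-PMX. All 6 Arc-veh wells lay above all WT-veh wells, while the highest WT-PMX well was above the lowest Arc wells. Over both treatments it was higher by 0.26 on the log2 scale (SE 0.05, edgeR adjusted p = 0.00567). Reads of the human transgene that map to mouse *App* cannot be told apart from those of the mouse gene.

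Of the other genes that rose, *Myo16* (chr8:10153911-10634742), an unconventional myosin of neurons that binds actin regulators, was the clearest. It had 36.0, 70.2 and 86.7 CPM in the lowest, median and highest WT well and 91.8, 112 and 156 in Arc. The ranges did not overlap, and the log2 fold change was 0.77 ± 0.11 (edgeR adjusted p = 7.56e-05). In CA1 nuclei *Myo16* averaged 174 ± 35.2 CPM in WT and 193 ± 21.7 in Arc, a difference of effects of 0.56 ± 0.10 (adjusted p = 0.00924). *Cnih3*, a cornichon-family AMPA receptor auxiliary subunit, had 3.47, 16.9 and 25.8 CPM in WT and 18.9, 32.5 and 41.8 in Arc. It rose 2.01-fold (edgeR adjusted p = 0.00483), and in the core set its log2 fold change was 1.10 (adjusted p = 0.00156). Its genotype effect differed from that in CA1, where it was −0.11, by 1.02 ± 0.17 (adjusted p = 0.00239). *Zfp804b* (0.81), *Frmd4b* (0.55) and *Tspan18* (0.45), a tetraspanin, rose as well, with edgeR adjusted p-values of 0.00082, 0.0112 and 0.036. The call of *Tspan18* was lost in 14 of the 24 fits without 1 well. *Pcdh15*, a protocadherin gene, had 34.7, 81.0 and 118 CPM in the lowest, median and highest WT well and 74.2, 123 and 197 in Arc (0.65 ± 0.15, edgeR adjusted p = 0.0304), and it was lost in 6 of the 24 fits, without the *Tshz2* nuclei (0.51, adjusted p = 0.195) and in the core set (0.60, adjusted p = 0.173). *AC171111.1* (0.88 ± 0.22, edgeR adjusted p = 0.0487) was lost in 15 of the fits and in the core set (0.83, adjusted p = 0.107).

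Both kainate receptor subunit genes that are low in CA3 were called. *Grik1* had 0, 3.24 and 6.58 CPM in the lowest, median and highest WT well and 2.27, 7.37 and 53.1 in Arc, with 8 of 12 Arc wells above the highest WT well (log2 fold change 2.09 ± 0.44, edgeR adjusted p = 0.0121). In CA1 its means were 62.5 ± 32.7 CPM in WT and 23.5 ± 20.3 in Arc, and the effects differed by 3.12 (adjusted p = 0.00147). *Grik1* had too few counts to be tested in the core set. *Grik3* had 1.73, 13.1 and 40.6 CPM in WT and 7.37, 19.1 and 66.7 in Arc (1.27 ± 0.30, edgeR adjusted p = 0.0373), and was not called by DESeq2 (adjusted p = 0.13) or in the core set (0.71, adjusted p = 0.673). Its call was also lost in 13 of the 24 fits without 1 well.

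The 12 genes that fell were led in level by *Kcnq3* (chr15:65986387-66286642), which encodes an M-current potassium channel subunit that pairs with the product of *Kcnq5*. It had 914, 1142 and 1290 CPM in the lowest, median and highest WT well and 687, 797 and 940 in Arc, with 11 of 12 Arc wells below the lowest WT well. Its log2 fold change was −0.46 ± 0.06 (0.725-fold, edgeR adjusted p = 1.23e-05), and it was called under every alternative over both treatments. In CA1 nuclei it averaged 1365 ± 131 CPM in WT and 1287 ± 128 in Arc. The effects differed by −0.40 (edgeR adjusted p = 0.0133).

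*Arhgap26* (identifier ENSMUSG00000118193.1), a GTPase-activating protein gene, had 76.1, 94.8 and 123 CPM in the lowest, median and highest WT well and 50.3, 61.0 and 85.9 in Arc (−0.65 ± 0.09, edgeR adjusted p = 2.19e-05). Another identifier of the same name, ENSMUSG00000036452.18, had a log2 fold change of −0.05 (adjusted p = 0.942), so the split of transcripts between the identifiers is uncertain. *Dkk3*, a secreted protein of the Dickkopf family, had 118, 132 and 160 CPM in WT and 77.1, 110 and 129 in Arc (−0.33 ± 0.07, adjusted p = 0.0165). *Prkcd*, protein kinase C delta, had 7.85, 17.3 and 24.6 CPM in WT and 1.14, 7.83 and 13.6 in Arc (−1.05 ± 0.21, adjusted p = 0.00819). *Trpc5*, a cation channel gene, fell by 0.28 (adjusted p = 0.0347), and its effect differed from that in CA1, where it was 0.20, by −0.49 (adjusted p = 0.0156). The call of *Trpc5* was lost in the core set (−0.25, adjusted p = 0.0788) and in 13 of the 24 fits without 1 well. *Ttn* had 37.9, 98.1 and 283 CPM in WT and 5.04, 42.2 and 177 in Arc (−1.40 ± 0.29, adjusted p = 0.0123). In the core set it was −0.74 (adjusted p = 0.411). The summed mossy cell markers given above had a lower mean in Arc as well, and their part in the fall of *Ttn* was not tested. *Kirrel* (−0.99), *Rab24* (−1.21), *Ifi203* (−0.76), *Mrpl48* (−0.49), *Tmem200a* (−0.37) and *Ahi1* (−0.34) also fell, with edgeR adjusted p-values from 0.00571 to 0.0347, and *Ahi1* was lost in 13 of the fits without 1 well. On water *4930447C04Rik* fell by 0.71 on the log2 scale (adjusted p = 0.0492 from edgeR), a call lost in 16 of the 24 fits and in the core set (−0.62, adjusted p = 0.182).

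**Figure D3:**
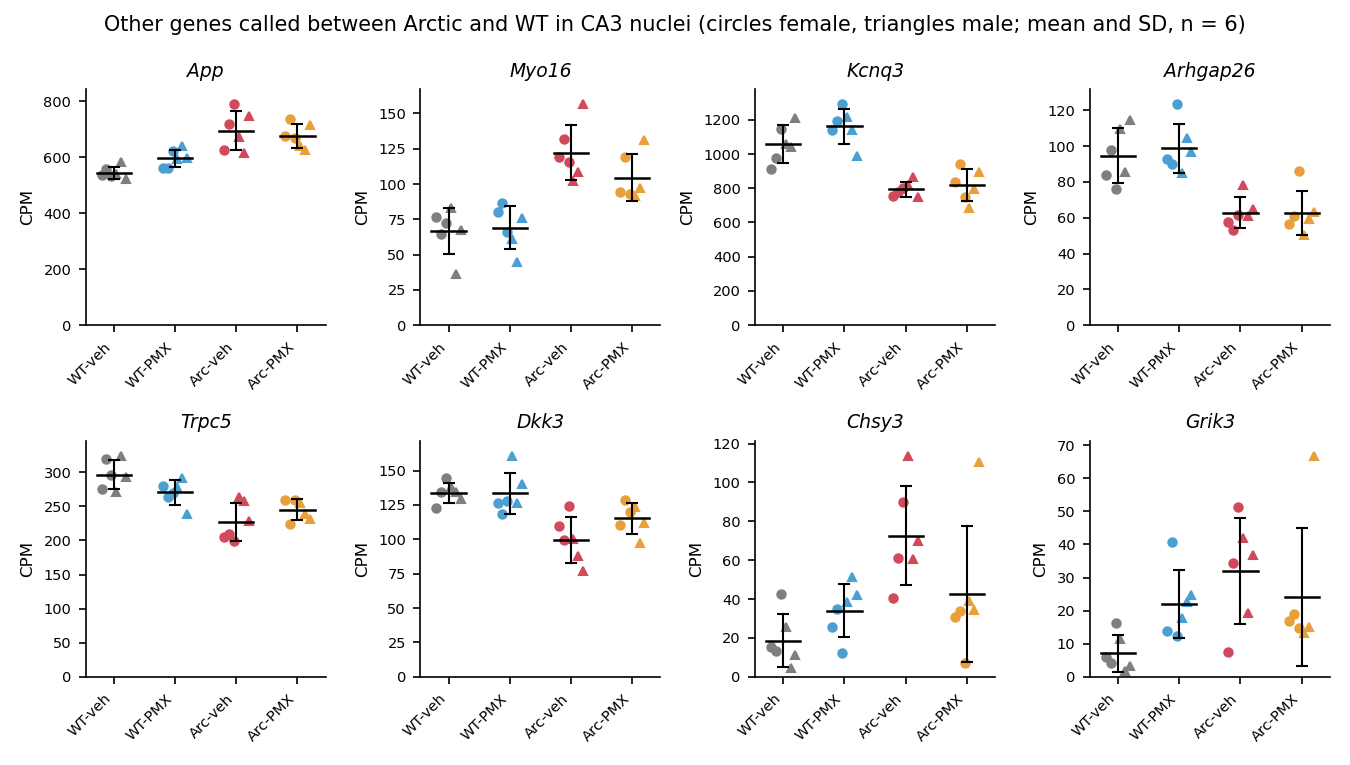
CPM of 8 other genes called between the genotypes, in the CA3 nuclei of each well; circles are females, triangles males, and the bar is the mean ± SD of 6 wells. *Myo16* separates the 12 Arc from the 12 WT wells, 11 of 12 Arc wells are below the lowest WT well for *Kcnq3*, and *Chsy3* and *Grik3* overlap widely.

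The calls of *Chsy3* and *Vwc2l* on water were lost when the *Tshz2* nuclei were removed. *Chsy3* had 4.33, 14.3 and 42.7 CPM in the lowest, median and highest WT-veh well and 40.6, 65.7 and 114 in Arc-veh (log2 fold change 2.04 ± 0.36, edgeR adjusted p = 0.00358). Without the 61 *Tshz2* nuclei it was 1.10 (adjusted p = 0.214), and in the core set 0.93 (adjusted p = 0.683). The summed cortical and subicular markers were 137 to 275 CPM in WT-veh and 264 to 472 in Arc-veh. *Prr16*, a gene linked to cell growth, had 3.03, 14.5 and 22.9 CPM in WT-veh and 24.6, 56.0 and 69.2 in Arc-veh, with no overlap (1.82, adjusted p = 0.0034). Without the *Tshz2* nuclei *Prr16* was 1.60 and still called (edgeR adjusted p = 0.0405), and in the core set it was 1.69 and not called (adjusted p = 0.276). *Vwc2l*, a secreted bone morphogenetic protein antagonist, had 3.90, 7.02 and 31.2 CPM in WT-veh and 28.3, 42.0 and 71.5 in Arc-veh (2.07, adjusted p = 0.00701). Without the *Tshz2* nuclei *Vwc2l* was 1.23 (edgeR adjusted p = 0.404), and it had too few counts to be tested in the core set. *AY036118*, which carries ribosomal RNA sequence, was called on water (3.04, edgeR adjusted p = 0.0348) and not without Arc-veh M1 (1.17), the well with 7442 CPM, nor in 7 other fits that left out 1 well. Without the *Tshz2* nuclei *AY036118* was again 3.04 (edgeR adjusted p = 0.0392), and in the core set it was 3.00 (adjusted p = 0.0564). The part of nuclei of another kind, or of ribosomal RNA, in these differences was not tested beyond these values.

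The other lists had at most 2 members called between the genotypes over both treatments, where 0.531% of all genes were higher and 0.123% lower. Among 15 tested ionotropic glutamate receptor genes 2 rose, *Grik1* and *Grik3* (median log2 fold change 0.002), and among 12 auxiliary subunits 1 rose, *Cnih3* (−0.011). The ionotropic list includes *Grik4*, a gene that the rule used to choose the members. Among 27 potassium and HCN channel genes 1 fell, *Kcnq3* (0.022), and among 16 genes of APP processing 1 rose, *App* (0.035). Among 10 CA3 markers outside the rule 1 rose, *Tspan18* (−0.069). Lists with 0 of their tested members called by edgeR were the 6 metabotropic glutamate receptors (median −0.006), 17 mossy fibre adhesion genes (0.039), 18 calcium and sodium channels (−0.020), 10 GABA-A receptor genes (0.024), 10 genes of the unfolded protein response (0.048), 14 activity-induced genes (−0.068) and 2 interferon-induced genes (0.459). The mossy fibre adhesion list includes the rule gene *Nectin3*. Of the lists of other cell types, 7 CA2 markers (−0.152), 5 cortical and subicular markers (0.320), 2 dentate markers (0.283), 2 astrocyte markers (0.661) and 3 oligodendrocyte markers (0.387) also had 0 called, as had 2 interneuron markers (0.189) and 1 tested marker each of CA1 (0.103), microglia (0.038), oligodendrocyte precursors (0.315) and vascular cells (0.393). The 1 tested mossy cell marker of 5 had a log2 fold change of −1.02 and was not called. The medians of the mossy cell and astrocyte lists were thus farther from 0 than those of the neuronal lists without a call, over few tested members. Over all 9795 genes, 760 had an unadjusted p under 0.05.

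**Figure D4:**
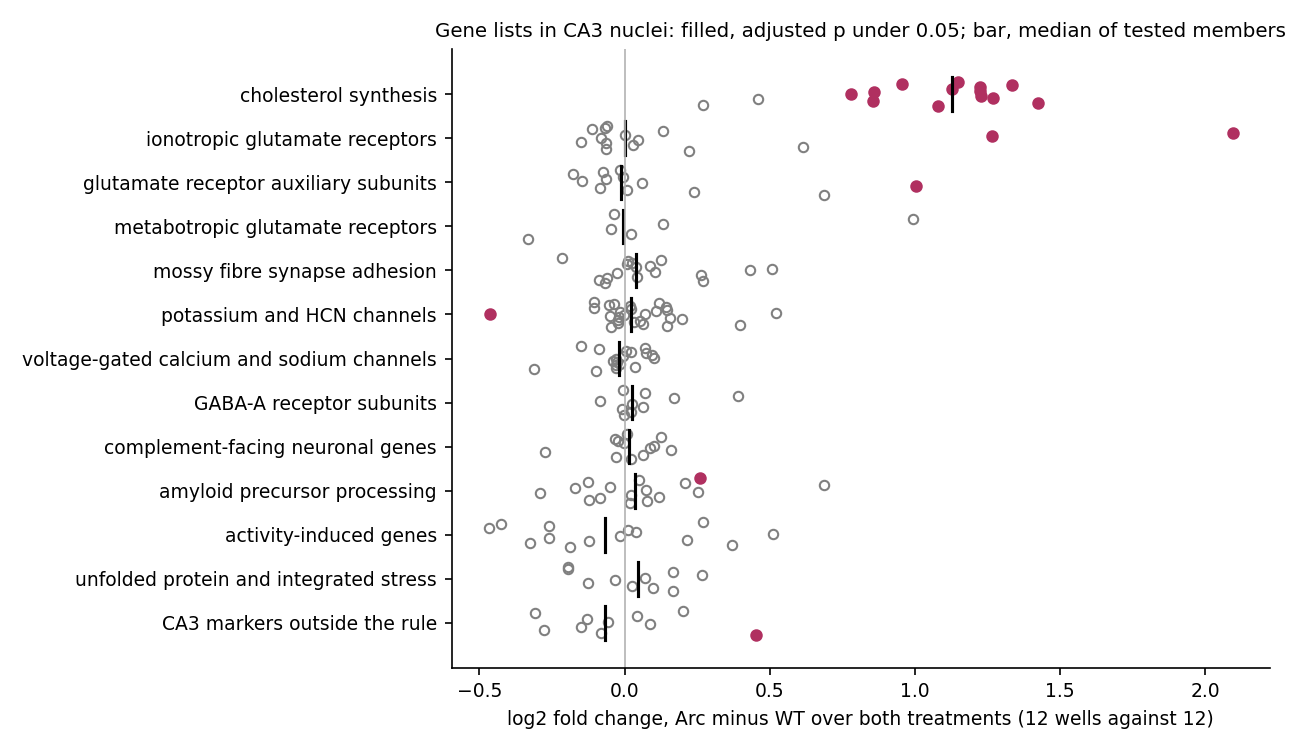
Log2 fold change between Arc and WT CA3 nuclei (12 wells each) for the tested members of each gene list; filled points passed an adjusted p of 0.05 and the bar is the list's median. The cholesterol list has a median of 1.13 with 13 filled points, and the other lists plotted have medians between −0.069 and 0.048.

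Complement was the study's subject, and the complement-facing genes of CA3 nuclei were read for it. Of 12 tested members 0 passed between the genotypes (edgeR, median log2 fold change 0.016), where 0.653% of all genes tested passed. *Csmd1*, an inhibitor of the classical pathway found at neuronal membranes, had 5959, 6602 and 7161 CPM in the lowest, median and highest WT well and 5433, 6674 and 7098 in Arc (0.01 ± 0.05, edgeR adjusted p = 1.0). Its mean over wells was 6607 CPM in CA3, 6902 in CA1 and 5937 in dentate nuclei. *C4b*, a complement component that the study placed in astrocytes and oligodendrocytes, had too few counts to be tested. Its median was 0 CPM (0 to 2.19) in WT and 4.85 (0 to 48.1) in Arc, and it ran from 1.46 to 48.1 in Arc-PMX, where 2 wells also had the highest glial marker levels. Their part was not tested.

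With the filter on low counts, PMX205 gave no called gene. In Arc mice 0 of 9795 genes passed edgeR's test (283 with an unadjusted p under 0.05) and DESeq2 called 0. In WT mice 0 passed (322 with an unadjusted p under 0.05, DESeq2 0), and for the difference of the effects between genotypes 0 passed (369, DESeq2 0). Each of these 3 counts of unadjusted p is below a share of 0.05 of the genes tested, the share expected when no gene differs. Without Arc-PMX F2, 3 genes passed in Arc mice. Without the filter on low counts 83 genes passed in Arc mice, 47 of them among the 9795, 22 in WT mice (20 among the 9795) and 39 for the difference of the effects (33 among them), so the absence of calls depends on that filter. The cholesterol list had a median log2 fold change of 0.09 between Arc-PMX and Arc-veh with 0 of 15 called, and its summed level was 495 ± 52.7 CPM (SD, n = 6 wells) in Arc-veh and 539 ± 70.3 in Arc-PMX. Glial and vascular markers were 120 to 215 CPM in the 6 Arc-veh wells (median 155) and 204 to 722 in the 6 Arc-PMX wells (median 258), so the ranges barely overlapped. Of these lists, the tested astrocyte (2 of 8), oligodendrocyte (3 of 8) and oligodendrocyte precursor (1 of 6) markers had median log2 fold changes of 2.05, 1.18 and 0.71 with PMX205 in Arc mice. The tested microglia (1 of 8) and vascular (1 of 6) markers had 0.53 and 0.34, and 0 of all these were called by edgeR. When nuclei with 2 or more, or with 10 or more, glial transcripts were removed, 0 genes were called in Arc mice. Beyond these counts, the part of these nuclei's glial transcripts in the PMX205 comparison was not tested.

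The genes with the smallest unadjusted p in Arc mice were *Slc1a3*, an astrocyte glutamate transporter gene (log2 fold change 1.94), *Prr16* (−1.23) and *Rorb*, a cortical transcription factor gene (1.57). *Slc1a3* reached 171 CPM in Arc-PMX F1, the well with 509 CPM of summed astrocyte markers. *Prr16* had 4.91, 21.5 and 28.6 CPM in the lowest, median and highest Arc-PMX well, against 24.6, 56.0 and 69.2 in Arc-veh. The same Arc-veh wells gave the call of *Prr16* on water, which was lost in the core set. They also enter the difference of effects, so these comparisons of *Prr16* are not independent. In WT mice these were *1110019D14Rik* (0.89), *Ntf3* (−1.25), a neurotrophin gene of CA2 and granule cells, and *Cfap300* (−0.61). For the difference of effects they were *Camk2g*, a calmodulin kinase gene (−0.76), *Prr16* (−1.84) and *Gmeb1* (0.78). Among 14 tested activity-induced genes 0 were called in Arc mice by edgeR. Their median log2 fold change was −0.529, with 1 above zero, against −0.002 over all genes, in the same comparison in which the glial markers given above had higher levels in Arc-PMX. *Bdnf*, a neurotrophin gene induced by activity, averaged 43.3 CPM in Arc-veh and 30.8 in Arc-PMX, and *Egr3* 6.47 and 3.79. In WT mice the same 14 genes had a median of 0.211, and 12 were above zero. Between Arc-veh and WT-veh, which uses the same Arc-veh wells, their median was 0.244, and 9 were above zero. Summed over the 24 listed genes, the level was 408 to 707 CPM in Arc-veh (mean 539 ± 108, SD, n = 6 wells). In Arc-PMX it was 410 to 527 CPM (468 ± 40.8), so the ranges overlapped.

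Males and females differed in 7 genes (0.0715% of those tested). *Xist* (log2 −7.88, male minus female), *Eif2s3y* (9.93), *Uty* (7.51), *Kdm5d* (7.09), *Ddx3y* (6.39) and *Gm26992* (−2.11) were called besides *Stxbp5l*, a regulator of vesicle release (0.40, edgeR adjusted p = 0.0205). The call of *Stxbp5l* was lost in the core set (0.28, adjusted p = 0.219) and in 7 of the 24 fits without 1 well. DESeq2 called 50 genes, and edgeR called 150 without the filter on low counts. With 1 well left out the edgeR count ran from 6 to 93, being 93 without Arc-PMX F1 and 11 without WT-PMX M1.

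The genotype effect differed between CA3 and CA1 nuclei for 19 of 10570 genes, with a more positive effect in CA3 for 9 and a more negative one for 10 (817 with an unadjusted p under 0.05). Leaving out 1 well gave 12 to 22 such genes, 12 without Arc-veh F2, and 176 passed without the filter on low counts. The test between the types was not repeated over the core set, nor over CA1 nuclei cleaned in a similar way. The part of nuclei of another kind in these differences was not tested. Besides those above, *Clstn2*, a calsyntenin of synaptic adhesion, averaged 2425 CPM in WT and 2270 in Arc CA3 nuclei and 679 and 826 in CA1 nuclei (difference −0.40, edgeR adjusted p = 0.0167). *Prkg1*, cGMP-dependent protein kinase, averaged 2062 and 1857 CPM in CA3 and 897 and 1010 in CA1 (−0.35, adjusted p = 0.0133). *Satb1*, a chromatin organiser gene, averaged 47.8 and 37.3 CPM in CA3 and 49.0 and 65.3 in CA1 (−0.72, adjusted p = 0.0238). The call of *Satb1* was lost in 8 of the 24 fits without 1 well. *Trhde* averaged 682 and 619 CPM in CA3 and 76.8 and 106 in CA1 (−0.63, adjusted p = 0.0143). For these 4 genes the Arc mean was below the WT mean in CA3 and above it in CA1, although none was called in either type alone.

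**Figure D5:**
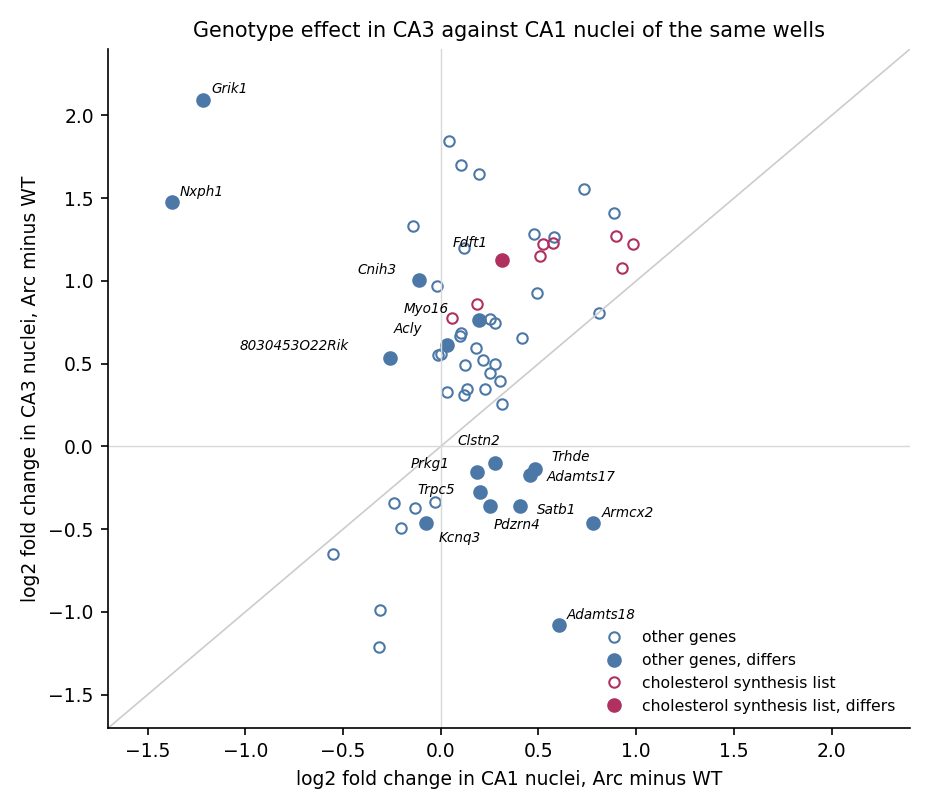
Log2 fold change between Arc and WT in CA3 nuclei against that in CA1 nuclei for 62 of the genes that were called in CA3 or differed between the types; the 17 filled points differed in effect at an adjusted p of 0.05. *Cnih3* lies at 1.005 in CA3 and −0.11 in CA1, *Myo16* at 0.77 and 0.19, and *Kcnq3* at −0.46 and −0.08.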

How the data were processed

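Nuclei of frozen mouse hippocampi were barcoded with the Parse Evercode kit, and the authors aligned the reads to mm10 with split-pipe. They deposited raw transcript counts per barcode, unfiltered and without normalization, in 7 sublibraries that share all wells. The deposited sample sheet gives each well's genotype, treatment and sex. Levels are CPM of the transcripts of member nuclei in a well. Counts were summed per well and tested with edgeR 4.0.16 (R 4.3.3; TMM factors 0.936 to 1.06, genes kept by filterByExpr, quasi-likelihood fit of the 4 groups with sex as covariate). The adjusted p is Benjamini-Hochberg at 0.05 over the 9795 genes tested. A fold change is TMM-scaled, and its SE is its absolute log2 divided by the square root of the F statistic. The difference between CA3 and CA1 was an interaction with the well as block. DESeq2 1.42.0 was an alternative. Doublets were scored by Scrublet in scanpy 1.11.5 and kept. The fits were tried on simulated data.

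The members and gene lists were chosen with earlier results of these data known. Up to 12 called genes per comparison with mean log2 CPM of at least 5 and the same sign in both sexes were named by change, or the 3 with the smallest p where none passed; list members, the 20 highest and 10 lowest genes of CA3 and the 12 most variable were named too. Any gene beyond this rule was chosen after its values were seen. Gene coordinates are those of GENCODE vM21, whose identifiers match the files. The well numbers were not taken as pairs, since no label ties them to a shared source. Some genes are not reported here by name, and counts over all genes or over a list include them.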

Additional observations from a re-analysis of the deposited data

Results flagged for a closer look

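In 13 of 224 groups of 6 wells (5.80%) 1 well stood apart from the other 5 in a gene named above, by Dixon's test at its 95% critical value, which chance passes in about 1 of 20 groups. *AY036118* was 7442 CPM in Arc-veh M1 and 765 in Arc-PMX F3, the wells with the most transcripts linked to ribosomal RNA. Arc-PMX F3, the well with the fewest CA3 transcripts, was also highest in its group for *Arhgap26* (85.9 CPM) and *Ttn* (177) and lowest for *Csmd1* (5433). Arc-PMX M3 was highest for *Chsy3* (110 CPM) and *Pcdh15* (197). *Slc1a3* was 171 CPM in Arc-PMX F1, and *Ntf3* was 27.2 in Arc-veh M1. *Stxbp5l* was highest in WT-veh M2 (1567), *Pdzrn4* highest in WT-PMX M3 (85.1) and in Arc-veh M3 (63.4), and *C4b* was found in 1 WT-veh well, F2 (1.24 CPM).

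The genotype effect differed between CA3 and CA1 nuclei for 19 genes (edgeR interaction, adjusted p of 0.05), given as log2 in CA3 minus log2 in CA1. Among them, it was more positive in CA3 for *Grik1* (3.12), *Nxph1* (2.67), *Cnih3* (1.02), *8030453O22Rik* (0.83), *Fdft1* (0.83), *Acly* (0.61) and *Myo16* (0.56). It was more negative in CA3 for *Adamts18* (−1.71), *Armcx2* (−1.20), *Satb1* (−0.72), *Pdzrn4* (−0.68), *Trhde* (−0.63), *Adamts17* (−0.62), *Trpc5* (−0.49), *Clstn2* (−0.40), *Kcnq3* (−0.40) and *Prkg1* (−0.35). With 1 of 24 wells left out, *Satb1* was lost in 8 cases, *Pdzrn4* in 10 and *Adamts17* in 13. DESeq2 called 13 genes, 6 of them more positive in CA3, and neither *Pdzrn4* nor *Adamts17* was among them. Since edgeR called 19, further genes of the 19 were not called by DESeq2 either.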

How the results depend on the processing

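Without a filter on low counts the genes called were 148 for Arc-veh against WT-veh (28 of the 30 among them), 261 over both treatments (all 64 among them), 83 and 22 for PMX205 in Arc and in WT mice, 39 for the difference of its effects, 150 for sex and 176 for CA3 against CA1; the cause was not tested. Removing nuclei with 2 or more glial transcripts, which left 10 to 60 nuclei per well, gave 5 genes on water and 18 over both treatments, 16 of them among the 64. On water 17 genes were called with at least 15 marker transcripts per nucleus and per 10000, 15 without nuclei with mossy cell or CA2 transcripts, and 14 in the core set, and 47 in the core set over both treatments (40 of them among the 64). DESeq2 called 50 genes for sex. With 1 well left out the counts were 17 to 34 on water (17 without WT-veh M2), 49 to 79 over both treatments, 0 to 3 and 0 for PMX205 in Arc and WT mice, 0 for the difference of its effects, 6 to 93 for sex and 12 to 22 for CA3 against CA1. The share of CA3 nuclei then differed by −0.140 to 1.05 percentage points between Arc-PMX and Arc-veh (−0.140 without Arc-veh M1, −0.0722 without Arc-PMX M3) and by −0.460 to 0.0641 between Arc and WT (0.0403 without Arc-veh M1, 0.0641 without Arc-PMX F1). *Csmd1* was −0.0114 to 0.0378 on the log2 scale, with −0.0114, −0.00852, −0.00123 and −0.00096 without Arc-PMX F1, Arc-PMX M2, WT-PMX F3 and Arc-veh F1.

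With the replicate number as a block 31 genes were called on water (26 of the 30 among them) and 59 over both treatments (55 of the 64), and 0 for PMX205. The 9 genes lost over both treatments were *AC171111.1*, *Khdrbs2*, *Kif24*, *Mvk*, *Pcsk5*, *Rbms1*, *Rdh11*, *Rgs20* and *Slc9a9*. Same-numbered wells of different groups correlated with a median of 0.095 (17 of 36 pairs over 0.1) and others with −0.022 (16 of 72 over 0.1). Same-numbered wells thus had the higher median, and whether they share a deviation was not tested. No label ties a number to a shared batch, so the numbers were not taken to pair wells in the main fit. Each of the 13 cholesterol genes called over both treatments stayed called under every alternative in which it was tested. *Zfp804b* was lost with the stricter marker threshold, and *Tspan18*, *Pcdh15*, *Grik3*, *Trpc5* and *Ahi1* were lost without some single wells. The removals of nuclei with 10 or more glial transcripts or of dentate, mossy, CA2 or *Tshz2* nuclei were chosen after seeing the data. Wells with few CA3 transcripts (from 407687) limit the precision for genes under about 10 CPM.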
